A study of Mus musculus with 4 samples.

Results

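The family of secreted Wnt signals, their receptors and their secreted antagonists was followed through 4 cultures of mouse bone marrow cells. Members were the genes on the array whose symbol starts with Wnt, Fzd, Sfrp, Dkk or Rspo followed by a number, together with Dkkl1. They came to 42 of the 19822 genes named on the array, namely 19 Wnt ligands, 4 R-spondins, 10 Frizzled receptors, 4 Sfrp genes and 5 Dkk genes. The family was read by 57 of the 41174 probes. In the 15 genes with more than 1 probe, the probe with the highest mean signal over the 4 arrays was used.

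Wnt proteins are lipid-modified signals that leave the cell and bind Frizzled receptors. In the beta-catenin branch they also bind the coreceptors Lrp5 and Lrp6, and beta-catenin then works with TCF/LEF factors in the nucleus. R-spondins strengthen the signal by keeping Frizzled receptors at the cell surface, Sfrp proteins bind Wnt proteins outside the cell, and Dkk1 and Dkk2 bind the coreceptors. Marrow stroma is known as a source of both Wnt signals and antagonists, and dendritic cells (DCs) are known to respond to Wnt signals.

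All 4 cultures began from BALB/c marrow. Immature DCs (imDCs) were grown with GM-CSF at 10 ng/mL and IL-4 at 5 ng/mL and selected on beads for the integrin CD11c on day 4. Mature DCs (maDCs) were imDCs given 10 ng/mL lipopolysaccharide (LPS), a bacterial product that matures DCs, for a further 4 to 5 days. The sDCs grew from lineage-depleted progenitors on a monolayer of Sca-1+CD117-Lin- mesenchymal stem cells, received LPS on day 4, at a dose the labels do not give, and had formed by day 9. The anti-IL-10 sDCs were grown like the sDCs with a neutralizing antibody to IL-10, a cytokine that restrains inflammation, at 10 µg/mL every 2 days. All samples were purified per the labels, which do not say how sDCs were parted from the monolayer or how many stromal cells came with them.

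Each culture was measured on 1 array, so no difference has a replicate check and no test was made. A level is the log2 of a probe's background-subtracted signal minus the array's 75th percentile of it, and levels of different genes, read by different probes, are not compared. The ± value after a difference comes from the scanner software's own error estimate, which holds no spread between cultures. For bright probes the estimate was nearly the same throughout, 0.14 for a level and 0.20 for a difference, so it is not a spread seen among spots. Repeated probes had a median SD between spots of 0.05 to 0.06 on the log2 scale. A difference was counted from 2-fold upwards, which is 1 on the log2 scale. Where a probe was not well above background on 1 of 2 arrays, the difference is a bound against the higher of its own level and the lowest level well above background there, and where it was dim on both arrays it has no value. A bound holds for this processing only. With normexp, another way of correcting background, many folds over dim probes were smaller. For family and pathway genes the normexp value stands beside each printed fold it moved by over 1.5 times. No normexp value is given for the cell type markers, so their folds over dim probes carry that limit. The imDC array lay on another slide than the other 3, so slide and culture cannot be told apart in comparisons with imDCs.

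The marker genes set the cultures apart. The 10 DC markers were well above background on both the imDC and maDC arrays, at summed levels (the log2 of their added linear levels) of 8.19 and 8.68, and they lay at 3.24 in sDCs and 3.10 in anti-IL-10 sDCs, where Irf4 was dim and the other 9 were measured. All 10 were at least 2-fold lower in sDCs than in either other culture, which goes against a plain DC label for the sDC samples. The 10 macrophage markers summed to 5.33, 7.17, 8.24 and 8.04 in imDCs, maDCs, sDCs and anti-IL-10 sDCs, with 9 of 10 well above background in imDCs and maDCs, where Folr2 was dim, and 10 of 10 in the others. Of 12 stromal markers, 9, 10, 12 and 12 were well above background in the same order, with summed levels of 6.76, 6.69, 7.58 and 6.73. Thy1, a surface protein also found on cells other than stroma, made up most of that sum in imDCs and maDCs, and the other 11 summed to 0.10, 1.95, 7.36 and 6.53. Col3a1, Lum and Pdgfra were dim in imDCs, and Pdgfra and Postn in maDCs. The 7 neutrophil markers on the array summed to 10.16, 6.39, 7.01 and 7.88, and the 6 mast cell and basophil markers to 3.54, 7.02, -1.72 and -1.45, with Kit dim in anti-IL-10 sDCs. Of 4 endothelial markers 3, 3, 4 and 2 were well above background, and of 4 lymphocyte markers 4, 3, 3 and 3.

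The family was sparsely expressed. In imDCs 23 of 42 members (54.8%) were well above background, in maDCs 15 (35.7%), in sDCs 26 (61.9%) and in anti-IL-10 sDCs 21 (50%), beside 76.3%, 69.5%, 72.8% and 70.4% of all 19822 genes. The lowest level that counted as well above background differed between arrays, at -7.28 in imDCs, -5.44 in maDCs, -6.04 in sDCs and -5.76 in anti-IL-10 sDCs, so a dim gene had the least room to be seen in maDCs. Only 11 members (26.2%) were well above background on all 4 arrays, against 65.3% of all genes. The 12 members dim on all 4 were the ligands Wnt2b, Wnt3, Wnt3a, Wnt5a, Wnt7a, Wnt8a and Wnt16, the R-spondins Rspo3 and Rspo4, the receptor Fzd10 and the antagonists Dkk1 and Dkk4. They made up 28.6% of the family, beside 19.8% of all genes. For these genes the arrays set no level, which is not the same as absence.

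**Figure D1:**
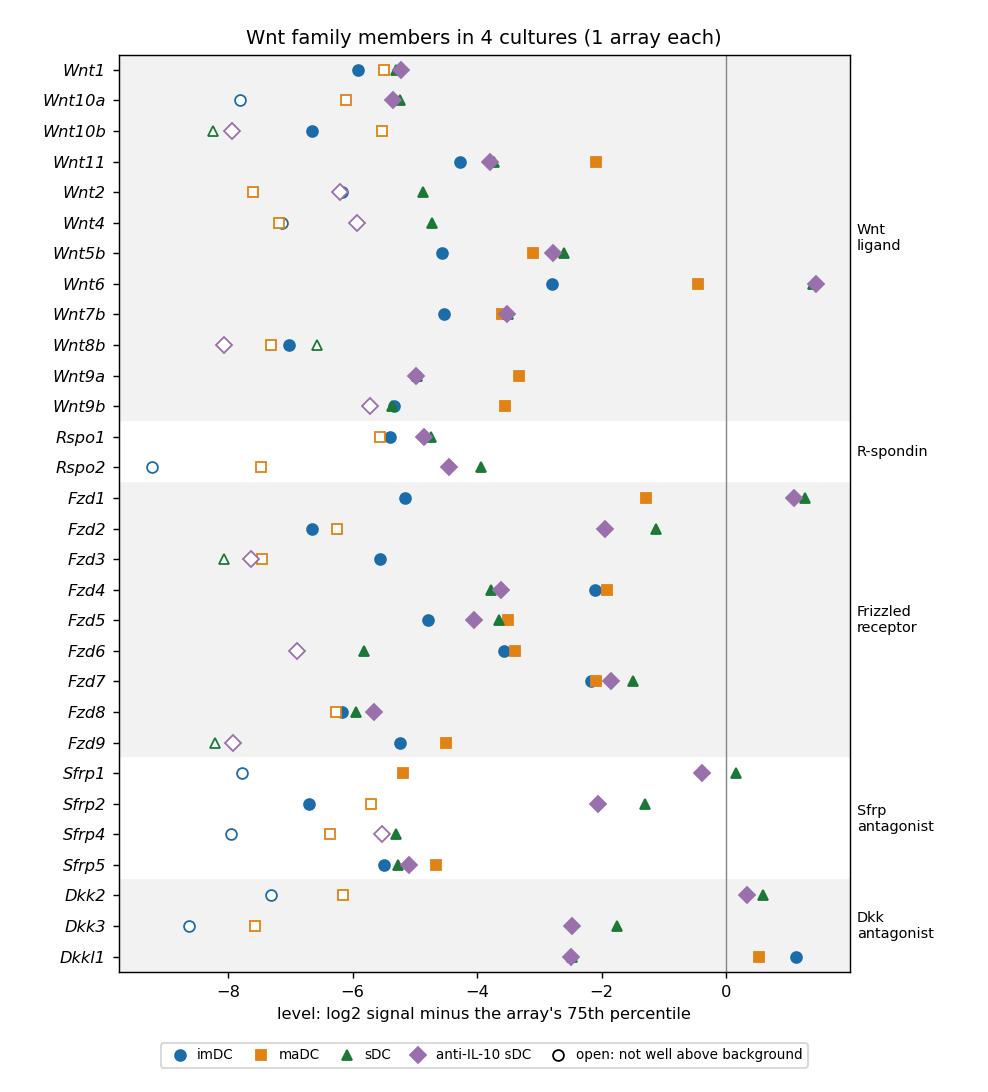
Levels of the 30 family members well above background on at least 1 array, on the log2 scale relative to each array's 75th percentile (line at 0), with 1 point per culture and open points where the probe was not well above background. Fzd1, Sfrp1 and Dkk2 lie above or close to 0 only in sDCs and anti-IL-10 sDCs, while Dkkl1 lies above 0 in imDCs (1.12) and maDCs (0.53).

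Mature DCs were compared with immature DCs to ask what LPS maturation changes, though the maDCs were also cultured longer. The ligands Wnt6, Wnt11, Wnt9a, Wnt9b and Wnt5b, the receptors Fzd1 and Fzd5 and the antagonist Sfrp1 were at least 2-fold higher in maDCs, and no member was 2-fold lower. That is 8 of 42 members higher (19.0%), beside 15.4% of all genes, and 0 lower, beside 7.65%. Among the 14 members measured on both arrays 7 were at least 2-fold higher (50.0%) and 13 lay above 0, with a median difference of 1.11, while 20.8% of the 13567 genes measured on both were 2-fold higher and their median was 0.19. A member dim in maDCs was placed no lower than the limit of -5.44 there, so few members could count as 2-fold lower. Members that fell below that limit are also missing from the 14 measured on both arrays. The shares of all genes were not matched for level. With no filter on dim probes 23 members were higher and 2 lower. Median scaling moved the median of all genes to -0.20 and the share of higher genes among all genes past 2-fold from 66.7% to 43.2%, and in the authors' deposited value table that share was 56.3%. The family then had 7 and 6 members higher, and none lower. The 7 neutrophil markers were all lower and the 6 mast cell and basophil markers all higher on the same arrays, with medians of -5.57 and 3.61. Of the 9 macrophage markers with a value 6 were at least 2-fold higher in maDCs and 1 was lower, with a median of 1.18. Among the stromal markers Col3a1, Dcn, Lum, Pdgfrb and Lox were at least 2-fold higher and Fn1 was lower, with a median of -0.09 over the 11 with a value and with Dcn and Lox each 32.4-fold higher. The part of these cell types in the family's differences was not tested. In such mixed samples more cells of a type and more RNA per cell cannot be told apart.

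The sDCs differed from imDCs in part of the ligands, R-spondins, receptors, Sfrp genes and Dkk genes. Dkk2, Dkk3, Sfrp1, Sfrp2 and Sfrp4, the receptors Fzd1, Fzd2 and Fzd5, the R-spondin Rspo2 and the ligands Wnt2, Wnt4, Wnt5b, Wnt6, Wnt7b and Wnt10a were at least 2-fold higher in sDCs. Fzd4, Fzd6 and Dkkl1 were at least 2-fold lower. That is 15 of 42 members higher (35.7%) and 3 lower (7.14%), beside 19.3% and 12.2% of all genes. Of the 19 members measured on both arrays, 8 were 2-fold higher (42.1%) and 3 lower (15.8%), with a median of 0.65 (1.09 over the 28 with a value, bounds included), and of the 13876 genes measured on both 23.5% were higher and 14.9% lower, with a median of 0.21. Median scaling moved the median of all genes to -0.18 and the share of higher genes among those past 2-fold from 61.2% to 42.9%. The family then had 12 members higher and 4 lower, with Fzd5, Wnt2 and Wnt7b under 2-fold and Fzd9 past it. Stromal markers moved with these genes: 11 of 12 were 2-fold higher in sDCs, with a median of 7.20 over the 12, and Thy1 was lower. All 10 macrophage markers were higher too, with a median of 3.37. All 10 DC, 7 neutrophil and 6 mast cell and basophil markers were lower, with medians of -4.63, -8.14 and -4.09, and the part of these cell types in the family's differences was not tested.

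Both sDCs and maDCs had met LPS, and 1 slide carried both arrays. Here the family split by gene. Fzd1, Fzd2, Sfrp1, Sfrp2, Dkk2, Dkk3, Rspo2 and Wnt6 were at least 2-fold higher in sDCs, and Wnt9a, Wnt9b, Wnt11, Fzd4, Fzd6, Fzd9 and Dkkl1 were at least 2-fold lower. That is 8 of 42 members higher (19.0%) and 7 lower (16.7%), beside 10.5% and 12.4% of all genes. Of the 14 members measured on both arrays 3 were higher (21.4%) and 6 lower (42.9%), beside 12.8% and 14.9% of 13224 genes, and the medians were -0.38 and 0.01. With bounds included, the median over 26 members was 0.35, so the sign of the family's median turned with them. The same 11 stromal markers were higher in sDCs than in maDCs, with a median of 5.25 over the 12, and 9 of 10 macrophage markers were, with a median of 2.62. All 10 DC markers and all 6 mast cell and basophil markers were at least 2-fold lower, with medians of -4.97 and -6.60, and 5 of 7 neutrophil markers were, with a median of -1.77. The part of these cell types was not tested here either. The comparisons share arrays, so their counts are not independent of each other.

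Among the ligands, 12 of 19 were well above background on at least 1 array. Wnt6, a ligand of epithelia and mesenchyme, lay at -2.80 in imDCs, -0.46 in maDCs, 1.39 in sDCs and 1.45 in anti-IL-10 sDCs, so it was lowest in imDCs and high in both stromal cultures. It was higher by 2.34 ± 0.20 in maDCs than in imDCs (5.06-fold) and by 4.18 ± 0.20 in sDCs (18.2-fold). The sDCs exceeded maDCs by 1.84 ± 0.20 (3.59-fold). A second Wnt6 probe, 100 bases away, gave -4.43, -1.38, 0.76 and 0.90 in the same order of cultures, well above background on every array. The 2 probes share no more than 7 bases in a row and are shown by their first 30 bases because both gave the same order of imDC, maDC and sDC levels.
Wnt6 probe at mm9 chr1:74831361-74831426: attcccctgaaaggccctttgctagttctg
Wnt6 second probe: ttcctcagaattactgggatggatgggtga

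Wnt11, Wnt9a and Wnt9b were highest in maDCs. Wnt11, which mostly signals without beta-catenin, lay at -4.28 in imDCs, -2.08 in maDCs, -3.73 in sDCs and -3.80 in anti-IL-10 sDCs. It was 4.57-fold higher in maDCs than in imDCs (2.19 ± 0.21) and 3.12-fold lower in sDCs than in maDCs (-1.64 ± 0.22). Leaving out spots with background outlier marks left Wnt11 in maDCs without a value, so both folds rest on a marked reading. Wnt9a lay at -4.98 in imDCs, -3.33 in maDCs, -4.96 in sDCs and -4.98 in anti-IL-10 sDCs, a difference of 1.65 ± 0.22 between maDCs and imDCs (3.14-fold). Its paralog Wnt9b lay at -5.34 in imDCs, -3.55 in maDCs, -5.37 in sDCs and -5.73 in anti-IL-10 sDCs, dim on the last array, with a difference of 1.79 ± 0.23 (3.45-fold). Neither Wnt9 gene differed between sDCs and imDCs by more than its error (0.02 ± 0.26 and -0.03 ± 0.29). With background corrected by the normexp method, the sDC minus maDC differences of Wnt9a and Wnt9b were -0.92 and -0.95 and so under 2-fold. The second Wnt9a probe was dim on every array.

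Wnt5b, which also signals mostly without beta-catenin, was higher in all 3 LPS-exposed cultures than in imDCs. Its levels were -4.56 in imDCs, -3.11 in maDCs, -2.61 in sDCs and -2.78 in anti-IL-10 sDCs, a difference of 1.45 ± 0.22 for maDCs (2.74-fold) and 1.95 ± 0.21 for sDCs (3.87-fold). In the authors' deposited value table the maDC difference was 0.997, just under 2-fold, and a second Wnt5b probe was well above background in imDCs alone. Wnt7b lay at -4.53 in imDCs, -3.60 in maDCs, -3.50 in sDCs and -3.52 in anti-IL-10 sDCs, so maDCs and sDCs lay close together above imDCs. Its difference was 0.93 ± 0.23 in maDCs and 1.03 ± 0.22 in sDCs, and the second was 0.61 after quantile normalization.

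The other ligands lay near the limit of detection. Wnt4, known from kidney and gonad development, was well above background in sDCs alone, at -7.14 in imDCs, -7.19 in maDCs, -4.73 in sDCs and -5.92 in anti-IL-10 sDCs, at least 5.31-fold higher in sDCs than in imDCs and 2.21-fold after normexp correction. Wnt2 lay at -6.17 in imDCs, -7.60 in maDCs, -4.86 in sDCs and -6.21 in anti-IL-10 sDCs, dim in maDCs and anti-IL-10 sDCs, and its sDC minus imDC difference of 1.31 ± 0.29 (2.47-fold) was 0.83 after quantile normalization. Wnt10a lay at -7.81 in imDCs, -6.11 in maDCs, -5.24 in sDCs and -5.36 in anti-IL-10 sDCs, dim in imDCs and maDCs, which gives at least 4.1-fold more in sDCs than in imDCs, or 0.997 on the log2 scale after normexp correction and 2.64-fold in the authors' deposited value table. All 3 were thus measured in sDCs, and of them Wnt10a alone in anti-IL-10 sDCs. Wnt1 lay at -5.92 in imDCs, -5.50 in maDCs, -5.30 in sDCs and -5.23 in anti-IL-10 sDCs, dim in maDCs, and differed by 0.62 ± 0.31 between sDCs and imDCs. Wnt10b (-6.65) and Wnt8b (-7.02) were well above background in imDCs alone, where the limit was lowest, and have no value in any comparison. In 2 pairs the ligand genes lie close together: the Wnt6 and Wnt10a probes are 19.3 kb apart on chromosome 1, and the Wnt1 and Wnt10b probes 21.2 kb apart on chromosome 15.

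Of the R-spondins, Rspo2 was well above background in the stromal cultures alone. It lay at -9.23 in imDCs, -7.47 in maDCs, -3.93 in sDCs and -4.45 in anti-IL-10 sDCs, which sets it at least 10.2-fold higher in sDCs than in imDCs and at least 2.85-fold higher than in maDCs. After normexp correction these were 2.86-fold and, under 2-fold, 0.64 on the log2 scale, and the first was 6.54-fold in the authors' deposited value table. A second Rspo2 probe, 53483 bases away, was dim on all 4 arrays. Rspo1 lay at -5.39 in imDCs, -5.56 in maDCs, -4.74 in sDCs and -4.85 in anti-IL-10 sDCs, dim in maDCs, and differed by 0.65 ± 0.27 between sDCs and imDCs, under 2-fold.
Rspo2 probe at mm9 chr15:42852727-42852786: ccttaggtcagtttgtccttagattatgaa

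Of the Frizzled receptors, 9 of 10 were well above background on at least 1 array. Fzd1 had the largest difference of any member measured on both arrays in each comparison with imDCs. It lay at -5.17 in imDCs, -1.29 in maDCs, 1.26 in sDCs and 1.09 in anti-IL-10 sDCs, so imDCs were lowest, maDCs between and both stromal cultures highest. The differences from imDCs were 3.88 ± 0.22 in maDCs (14.7-fold) and 6.42 ± 0.22 in sDCs (85.9-fold), and sDCs exceeded maDCs by 2.55 ± 0.20 (5.84-fold). After normexp correction the differences of Fzd1 from imDCs were 7.99-fold in maDCs and 40.3-fold in sDCs. Fzd2 lay at -6.66 in imDCs, -6.25 in maDCs, -1.13 in sDCs and -1.94 in anti-IL-10 sDCs, dim in maDCs, and was higher in sDCs than in imDCs by 5.53 ± 0.30 (46.3-fold) and at least 19.9-fold higher than in maDCs. These Fzd2 values were 11.9-fold and 7.49-fold after normexp correction. A second Fzd2 probe, 1432 bases away, was dim on all 4 arrays, so the Fzd2 result rests on 1 of its 2 probes. The probes are given by their first 30 bases.
Fzd1 probe at mm9 chr5:4754003-4754062: caaatgccgatacatacataggacctaaat
Fzd2 probe at mm9 chr11:102467613-102467672: tcacagtctacatgatcaaatacctcatga
Fzd2 second probe, dim on every array: cgtgacattctatatcataagatattgata

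Fzd4 and Fzd6 were lower in sDCs than in both other cultures. Fzd4, a receptor for Wnt and for Norrin, lay at -2.11 in imDCs, -1.92 in maDCs, -3.78 in sDCs and -3.61 in anti-IL-10 sDCs, so imDCs and maDCs lay close together and both stromal cultures below them. It was 3.19-fold lower in sDCs than in imDCs (-1.67 ± 0.21) and 3.64-fold lower than in maDCs (-1.86 ± 0.22). Fzd6 lay at -3.57 in imDCs, -3.39 in maDCs, -5.82 in sDCs and -6.89 in anti-IL-10 sDCs, dim in the last, with sDC differences of -2.25 ± 0.33 from imDCs and -2.43 ± 0.33 from maDCs, which were -0.90 and -1.17 after normexp correction, the first under 2-fold. Fzd9 lay at -5.23 in imDCs, -4.50 in maDCs, -8.20 in sDCs and -7.92 in anti-IL-10 sDCs, dim in both stromal cultures, and was at least 2.9-fold lower in sDCs than in maDCs, or -0.59 on the log2 scale after normexp correction. Against imDCs its bound was -0.80, under 2-fold, and -1.32 after quantile normalization. Fzd3, at -5.57, was well above background in imDCs alone.

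Fzd5 passed 2-fold over imDCs in maDCs and sDCs, and the main probes of Fzd7 and Fzd8 stayed under 2-fold wherever they had a value. Fzd8 had no value in the comparisons with maDCs. Fzd5 lay at -4.80 in imDCs, -3.51 in maDCs, -3.64 in sDCs and -4.05 in anti-IL-10 sDCs, higher than imDCs by 1.28 ± 0.23 in maDCs and 1.15 ± 0.22 in sDCs. After quantile normalization these were 0.86 and 0.71, under 2-fold, and a second Fzd5 probe gave 0.25 for sDCs minus imDCs. Leaving out spots with background outlier marks left Fzd5 in maDCs without a value. Fzd7 lay at -2.17 in imDCs, -2.10 in maDCs, -1.50 in sDCs and -1.85 in anti-IL-10 sDCs, with sDCs 0.67 ± 0.21 above imDCs, and its second probe was well above background in sDCs alone, where it gave a bound of 1.74. Fzd8 lay at -6.17 in imDCs, -6.27 in maDCs, -5.95 in sDCs and -5.66 in anti-IL-10 sDCs, dim in maDCs, and its sDC minus imDC difference of 0.22 ± 0.38 lay within its error.

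Antagonists held the largest bounds of the family in sDCs, those of Dkk2 and Sfrp1. Sfrp1, which binds Wnt proteins through a Frizzled-like domain, lay at -7.77 in imDCs, -5.19 in maDCs, 0.15 in sDCs and -0.39 in anti-IL-10 sDCs, dim in imDCs. It was at least 4.25-fold higher in maDCs than in imDCs, at least 173-fold higher in sDCs than in imDCs and 40.6-fold higher in sDCs than in maDCs (5.34 ± 0.32). After normexp correction these were 2.12-fold, 31.7-fold and 15.0-fold. A second Sfrp1 probe, 688 bases away, was dim on all 4 arrays. Sfrp2 lay at -6.70 in imDCs, -5.70 in maDCs, -1.30 in sDCs and -2.06 in anti-IL-10 sDCs, dim in maDCs, and was 42.1-fold higher in sDCs than in imDCs (5.40 ± 0.29) and at least 17.6-fold higher than in maDCs. For Sfrp2 normexp correction gave 10.9-fold and 6.77-fold. Sfrp4 was well above background in sDCs alone (-5.31), at least 3.92-fold over imDCs, or 0.83 on the log2 scale after normexp correction and 2.54-fold in the authors' deposited value table. Sfrp5 lay at -5.49 in imDCs, -4.66 in maDCs, -5.28 in sDCs and -5.09 in anti-IL-10 sDCs, and none of its differences reached 2-fold.
Sfrp1 probe at mm9 chr8:24558112-24558171: cggaatcagtatagcgtggaaggagacagt
Sfrp1 second probe, dim on every array: gtgcattagtaattagaaatagtctaacct
Sfrp2 probe at mm9 chr3:83577864-83577923: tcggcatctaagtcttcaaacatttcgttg

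Dkk2 is a coreceptor antagonist. Its levels were -7.32 in imDCs, -6.16 in maDCs, 0.59 in sDCs and 0.33 in anti-IL-10 sDCs, dim in imDCs and maDCs, so sDCs exceeded imDCs at least 234-fold and maDCs at least 65.5-fold. After normexp correction Dkk2 was 40.7-fold higher in sDCs than in imDCs and 23.4-fold higher than in maDCs. Dkk3, a more distant member whose part in Wnt signalling is less settled, lay at -8.63 in imDCs, -7.57 in maDCs, -1.75 in sDCs and -2.48 in anti-IL-10 sDCs, again dim in imDCs and maDCs. It was at least 46.1-fold higher in sDCs than in imDCs and at least 12.9-fold higher than in maDCs. The normexp values of Dkk3 were 9.1-fold and 4.96-fold. Dkkl1, a relative of the Dkk genes known mainly from the testis, went the other way. It lay at 1.12 in imDCs, 0.53 in maDCs, -2.48 in sDCs and -2.49 in anti-IL-10 sDCs, 12.2-fold lower in sDCs than in imDCs (-3.60 ± 0.21) and 8.04-fold lower than in maDCs (-3.01 ± 0.21), and differed between maDCs and imDCs by -0.60 ± 0.20.
Dkk2 probe at mm9 chr3:131842357-131842416: tcagagtgatgatgtcatcagaagtttata
Dkk3 probe at mm9 chr7:119260828-119260887: gaatgaaatttgcaaagtcgcttagcaaca
Dkkl1 probe at mm9 chr7:52462916-52462975: atcccaacagctgtaagtggggaccagatg

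The probes are 60 bases long, and between probes of different members the longest run of shared bases was 14. Where RefSeq gives a strand for the gene, 37 of 37 member probes lay on it. Of the genes at least 2-fold higher in sDCs than in both other cultures, 4 of 8 have a promoter entry in RefSeq (GRCm38.p6). Their 250 bases before the start are printed because these genes were high in the same cultures. Capitals mark the TATA-box letters TATAAA, searched on both strands.
Wnt6, chr1:74771642-74771891, plus strand: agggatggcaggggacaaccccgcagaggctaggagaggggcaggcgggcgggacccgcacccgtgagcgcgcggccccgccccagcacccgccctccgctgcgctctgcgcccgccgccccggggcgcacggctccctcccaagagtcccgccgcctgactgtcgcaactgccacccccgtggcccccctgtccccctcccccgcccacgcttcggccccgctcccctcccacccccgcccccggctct
Fzd1, chr5:4758217-4758466, minus strand: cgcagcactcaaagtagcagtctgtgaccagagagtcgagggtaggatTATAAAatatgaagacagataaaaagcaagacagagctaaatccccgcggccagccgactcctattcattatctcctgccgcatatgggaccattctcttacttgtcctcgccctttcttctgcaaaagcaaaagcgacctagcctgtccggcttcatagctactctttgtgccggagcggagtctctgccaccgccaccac
Sfrp2, chr3:83766071-83766320, plus strand: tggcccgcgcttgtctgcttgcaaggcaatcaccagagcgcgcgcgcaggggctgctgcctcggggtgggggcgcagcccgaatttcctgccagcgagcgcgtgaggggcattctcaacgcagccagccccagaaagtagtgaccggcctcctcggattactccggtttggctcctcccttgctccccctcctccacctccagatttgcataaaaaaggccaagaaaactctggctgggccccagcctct
Dkk2, chr3:132085042-132085291, plus strand: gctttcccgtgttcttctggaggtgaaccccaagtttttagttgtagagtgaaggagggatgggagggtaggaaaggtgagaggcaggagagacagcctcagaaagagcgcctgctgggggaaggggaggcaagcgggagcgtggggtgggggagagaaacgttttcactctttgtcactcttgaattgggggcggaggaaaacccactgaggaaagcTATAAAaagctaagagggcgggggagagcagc

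TATAAA stood at -32 from the start in Dkk2 and at -202 in Fzd1, and in neither of the others. It occurred in 4 of 31 windows of 28 members (12.9%), beside 12.4% of all 32851 windows. The TCF/LEF motif, CTTTG followed by AA, AT, TA or TT, was searched on both strands too and was in none of these 4 windows. It occurred in 4 of the 31 member windows (12.9%), namely those of Dkk1, Fzd7, Wnt5b and Wnt11, and in 14.8% of all windows. The family's windows were rich in G and C, with a median of 68% and 22 CpG pairs, beside 52.4% and 6 over all windows. Among the printed ones, Wnt6 had 79.6% G and C and Fzd1 51.2%. These letters are descriptions of the windows, not binding sites.

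The machinery that makes, receives and transmits Wnt signals was followed in 67 further genes, all on the array. In maDCs against imDCs 13 were at least 2-fold higher (19.4%) and 2 lower (2.99%), beside 15.4% and 7.65% of all genes. In sDCs against imDCs 20 were higher (29.9%) and 5 lower (7.46%), beside 19.3% and 12.2%, and in sDCs against maDCs 11 were higher (16.4%) and 7 lower (10.4%), beside 10.5% and 12.4%. With the antibody comparison, 59 differences of these genes passed 2-fold. Of them 10 fell under 2-fold with normexp and 7 with quantile normalization. With median scaling 9 did, as in the authors' deposited value table. Of the 2 secretion genes, Porcn, the enzyme that attaches the lipid to Wnt proteins, lay at -4.12 in imDCs, -2.89 in maDCs, -0.87 in sDCs and -0.86 in anti-IL-10 sDCs, in the same order of imDCs, maDCs and sDCs as Wnt6 and Fzd1. It was 2.35-fold higher in maDCs and 9.5-fold higher in sDCs than in imDCs. The maDC difference of Porcn was under 2-fold with quantile normalization (0.87), median scaling (0.84) and in the authors' deposited value table (0.83). Wls, which carries Wnt proteins to the surface, lay between 2.55 and 2.95 on all 4 arrays.

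Of 13 coreceptors and regulators of receptors, 4 were higher in maDCs than in imDCs and 5 in sDCs, beside 15.4% and 19.3% of all genes. Lgr4 and Znrf3 in maDCs and Ptk7 in sDCs fell under 2-fold with normexp, quantile normalization and median scaling. They did so in the authors' deposited value table too. Lgr5, a receptor for R-spondins, lay at -9.43 in imDCs, -7.55 in maDCs, -2.36 in sDCs and -2.89 in anti-IL-10 sDCs, dim in imDCs and maDCs like Rspo2, and was at least 30.2-fold higher in sDCs than in imDCs, or 6.6-fold after normexp correction and 19.9-fold in the authors' deposited value table. Ror1, a Wnt5a receptor, was dim in imDCs and anti-IL-10 sDCs and lay at -3.66 in maDCs and -4.36 in sDCs. Kremen1, a receptor for Dkk proteins, was 3.43-fold higher in maDCs than in imDCs (1.78 ± 0.20). The coreceptors Lrp5 and Lrp6 lay within 2-fold of imDCs in both other cultures, and Lrp5 was 2.38-fold higher in sDCs than in maDCs. Of 7 other secreted antagonists, Frzb, Sost and Draxin were measured on all arrays and stayed under 2-fold in every comparison, Notum was measured in imDCs alone, and Wif1, Sostdc1 and Cer1 were dim throughout.

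In the cytoplasm and nucleus the cultures also differed by gene. Of 15 cytoplasmic genes, Ctnnb1, which encodes beta-catenin, was 2.1-fold higher in sDCs than in imDCs, or 1.6-fold with median scaling, and Ctnnbip1, an inhibitor of beta-catenin's contact with TCF, was 9-fold higher (3.17 ± 0.20). Amer1 was 2.4-fold higher, or 1.83-fold with median scaling, and Axin1 was 2.23-fold lower in maDCs. Of 12 nuclear genes, Tcf7 lay at -1.84 in imDCs, 0.91 in maDCs, -3.51 in sDCs and -3.72 in anti-IL-10 sDCs, highest in maDCs and lowest on stroma. It was 6.72-fold higher in maDCs than in imDCs and 21.4-fold lower in sDCs than in maDCs. Its relative Lef1 lay at -1.96 in imDCs, -3.03 in maDCs, -5.11 in sDCs and -5.31 in anti-IL-10 sDCs, lower than imDCs in both other cultures. Lef1 was 2.09-fold lower in maDCs and 8.86-fold lower in sDCs, but only 1.64-fold and 3.64-fold after normexp correction. The corepressor Tle1 was 4.37-fold higher in maDCs and 2.19-fold lower in sDCs than in imDCs, and Tle2 was 4.71-fold and 4.17-fold higher.

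Genes known as targets or feedback regulators of the pathway did not move as 1 group. Axin2 and Sp5, used widely as readouts of beta-catenin signalling, were dim on all 4 arrays. Of 9 such genes, 1 was at least 2-fold higher in maDCs than in imDCs, Nkd1, and it was under 2-fold after normexp correction (1.77-fold). In sDCs 5 were higher than in imDCs and Myc lower by 2.02-fold. Of all genes 15.4% were higher in maDCs and 19.3% in sDCs. Ccnd1, a cyclin, lay at -1.55 in imDCs, -2.39 in maDCs, 2.75 in sDCs and 2.70 in anti-IL-10 sDCs, 19.7-fold higher in sDCs than in imDCs. Ccn4 lay at -6.69 in imDCs, -7.51 in maDCs, -0.40 in sDCs and -1.20 in anti-IL-10 sDCs, dim in maDCs. Ccn4 was 78.5-fold higher in sDCs than in imDCs and its relative Ccn5 31.2-fold, while Nkd2 was at least 31.2-fold higher. After normexp correction these 3 were 18.3-fold, 7.87-fold and 6.9-fold higher, and Nkd2 was 20.7-fold higher in the authors' deposited value table. Of 9 genes of planar polarity, a branch without beta-catenin, Prickle2 was 9.92-fold higher in maDCs and 6.28-fold higher in sDCs than in imDCs, and Celsr1 was 13.4-fold lower in sDCs. Normexp correction gave 4.21-fold and 2.94-fold for Prickle2 and 4.77-fold for Celsr1. Vangl1 was 3.62-fold higher in sDCs than in imDCs and 4.31-fold higher than in maDCs.

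**Figure D2:**
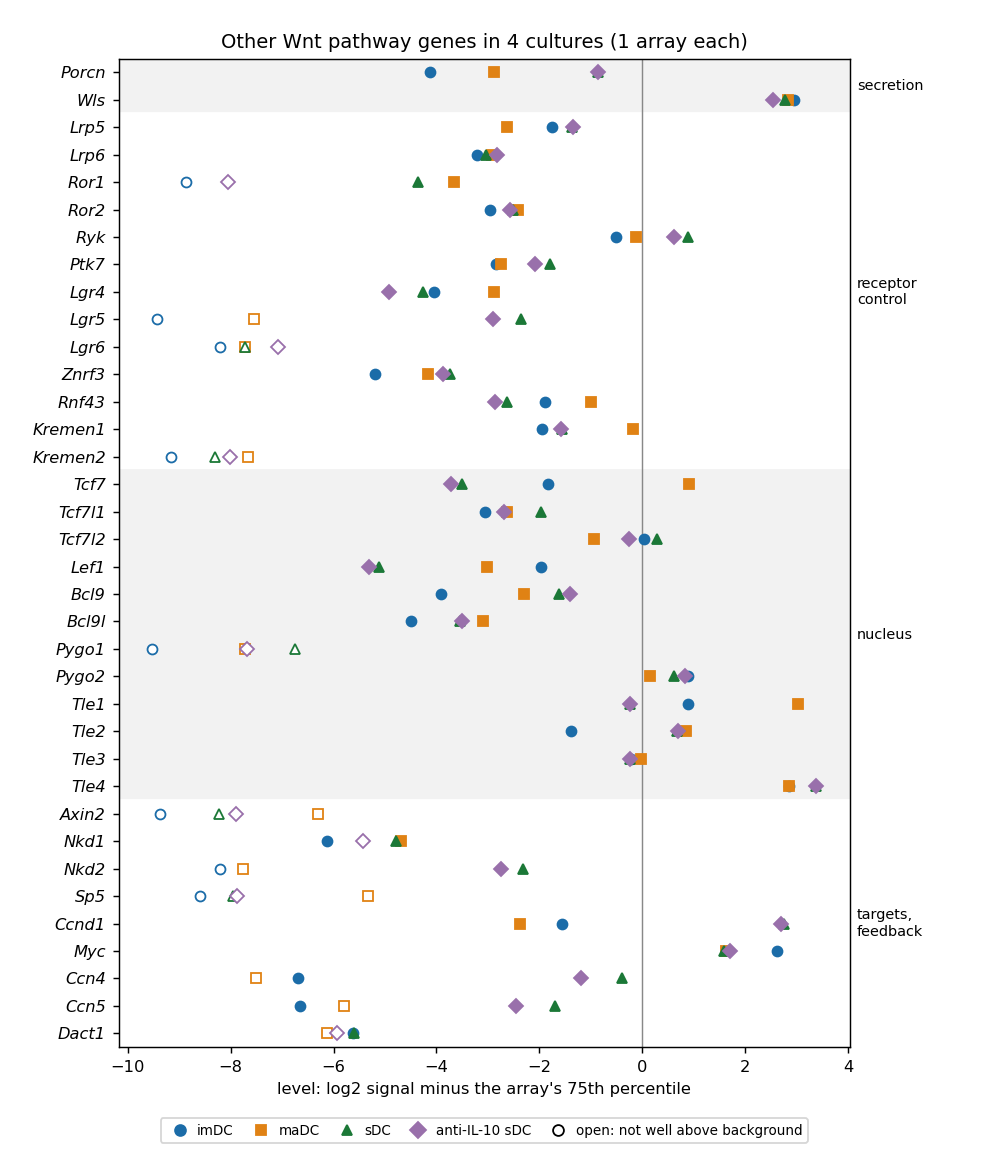
Levels of secretion, receptor control, nuclear and target genes of the Wnt pathway in the 4 cultures, on the log2 scale relative to each array's 75th percentile, with open points where the probe was not well above background. Porcn, Lgr5, Nkd2, Ccnd1, Ccn4 and Ccn5 are higher in both stromal cultures than in imDCs and maDCs, Lef1 is lower there, and Axin2 and Sp5 are open on all 4 arrays.

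The antibody comparison asked what neutralizing IL-10 does to sDCs, and the members differed little. No member was at least 2-fold higher, and 1, Wnt4, was lower, beside 0.626% and 0.913% of all genes, or 0.435% and 0.797% of the genes measured on both arrays. Wnt4 was dim in anti-IL-10 sDCs, which puts it at least 2.05-fold lower, and in the authors' deposited value table the bound was -0.98, under 2-fold, as it was after normexp correction (-0.38). Among the 21 members measured on both arrays the median difference was -0.11 and 5 lay above 0 (23.8%). Over the 13802 genes measured on both the median was -0.02, 43.2% lay above 0, and the SD over genes was 0.28. That SD comes from 1 pair of arrays and holds real differences as well as noise.

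Fzd2 and the antagonists Sfrp2, Dkk3 and Sfrp1 lay lowest among the measured members. Fzd2 was lower by 0.81 on the log2 scale with the antibody (-0.81 ± 0.21), a step that 2.33% of all measured genes reached or passed downwards. Sfrp2 differed by -0.76 ± 0.21 (2.93% of genes), Dkk3 by -0.73 ± 0.21 (3.22%) and Sfrp1 by -0.54 ± 0.20 (5.14%). Among genes within 0.5 of the member's level, 3.27% were as low for Fzd2, 4.46% for Sfrp2, 5.69% for Dkk3 and 5.07% for Sfrp1. Rspo2 differed by -0.52 ± 0.26, as far down as 5.4% of all genes but 15.7% of the 1099 genes within 0.5 of its level. Fzd5 differed by -0.40 ± 0.24, within the SD of 0.47 over the 1106 genes within 0.5 of its level, of which 18.4% were as low. The second Fzd5 probe differed by -0.01. Dkk2 differed by -0.26 ± 0.20, within the SD over all genes but past the SD of 0.22 over the 1640 genes within 0.5 of its level, of which 7.2% were as low. Wnt6 (0.06 ± 0.20), Fzd1 (-0.17 ± 0.20), Fzd4 (0.17 ± 0.23) and Dkkl1 (-0.01 ± 0.21) differed by less than their errors. Of these, Wnt6 and Fzd1 were high on stroma like Fzd2 and Sfrp2, yet Wnt6 lay near 0 here. Fzd1 lay close to the SD of 0.17 over the 1720 genes within 0.5 of its level, of which 10.6% were as low.

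Stromal markers moved with the lower members. All 12 lay below 0 in the antibody comparison, from -1.09 for Postn to -0.02 for Fn1, with a median of -0.88, and the 11 other than Thy1 summed to 7.36 in sDCs and 6.53 in anti-IL-10 sDCs. All 10 macrophage markers lay below 0 too, none of them past 2-fold, with a median of -0.34 and the lowest values for C1qc (-0.94) and C1qa (-0.86). Among the neutrophil markers 5 of 7 were at least 2-fold higher with the antibody, with a median of 1.22. The part of these cell types in the family's differences was not tested. Of the 67 other pathway genes, 1 was at least 2-fold lower and none higher: Ror1 was dim with the antibody, at least 2.65-fold lower, or 1.6-fold after normexp correction. Ccn4 and Ccn5 differed by -0.80 ± 0.20 and -0.76 ± 0.21, in the range of Fzd2 and Sfrp2, and Ccnd1 by -0.05 ± 0.20.

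**Figure D3:**
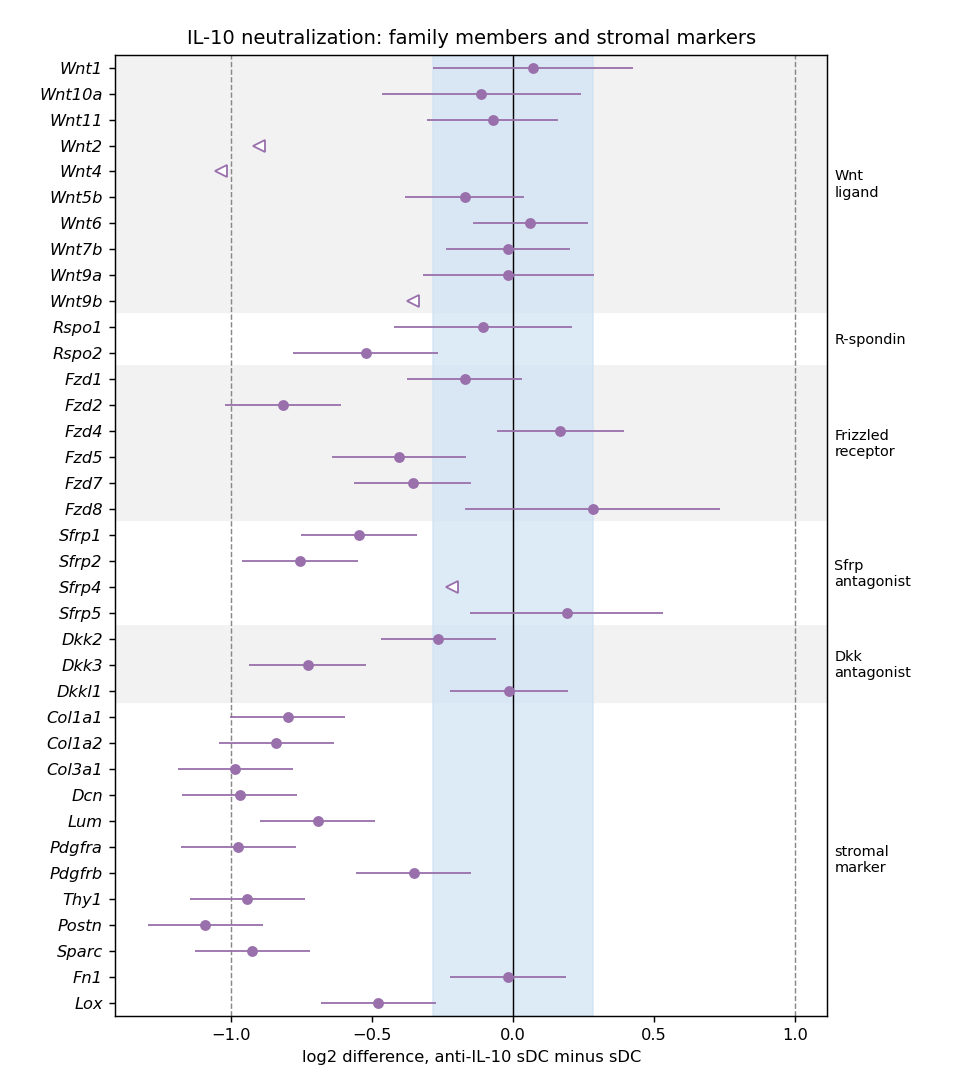
Log2 differences between anti-IL-10 sDCs and sDCs, 1 array each, for the 25 family members with a value and 12 stromal markers. Filled points carry the scanner's error, open triangles are bounds, the shaded band is 1 SD over all genes measured on both arrays (0.28) and dashed lines mark 2-fold. Of the filled points, Fzd2, Fzd5, Fzd7, Sfrp1, Sfrp2, Dkk3 and Rspo2 lie below the band, where 11 of 12 stromal markers also lie, and Wnt6 and Dkkl1 lie near 0. The bounds of Wnt4 (-1.03), Wnt2 (-0.90) and Wnt9b (-0.35) lie below the band too. The band is not matched for level.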

How the data were processed

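RNA of 4 cultures was hybridised to 1 one-colour Agilent array each. The authors deposited each spot's background-subtracted intensity, with its error and marks, made with Agilent Feature Extraction 10.5.1.1 per the file headers (9.1 per the submitters' processing notes), with probe positions in mm9. They also deposited a table of log2 values, whose columns all have a median of 6.30 and correlate with the log2 signal at 0.997 to 0.999 over 41174 probes; its normalization is not stated, and it served as an alternative. Spots marked as feature outliers (76 to 148 per array) and control spots were left out, and no spot was saturated. Levels are log2 intensity minus the array's 75th percentile. Detection required the deposited well-above-background mark on 50% or more of a probe's spots. The array number, 1 per culture, limits the precision, and replicate spread is unknown. Probes were named through RefSeq by accession (25097), symbol (6333) or synonym (1640), and 8104 stayed unnamed. Python 3.11.15, numpy 2.4.6, pandas 2.3.3, R 4.3.3 and limma 3.58.1 (normexp) were used, and the counting was tested on simulated data. The members and lists were chosen with earlier results of these data known. All members well above background on at least 1 array are described, and of the pathway lists up to 4 genes per list and direction with the largest differences past 2-fold, with a few within 2-fold named after their values were seen.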

Additional observations from a re-analysis of the deposited data

How the results depend on the processing

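No paired analysis was possible because each culture has 1 array, and for the same reason no array could be left out. Of 916 values of single members under 10 alternatives, 712 moved by less than the SD of 0.28 and 204 moved further; 21 changed sign, all of them 0.22 or less in size before, such as Fzd4, Fzd6 and Fzd7 for maDCs minus imDCs with median scaling and Fzd8, Sfrp5 and Wnt9a for sDCs minus imDCs with quantile normalization, and none past 2-fold did. The cause of the moves was not tested. For maDCs minus imDCs the median of 1.11 was 0.53 with quantile normalization, 0.54 with median scaling and 0.50 in the authors' deposited value table; the 8 higher members became 15 with the scanner's looser detection mark (and 2 lower), 23 with no filter (and 2 lower), 4 with the other probe and 4 at 4-fold, and 1 was lower at 1.5-fold. For sDCs minus imDCs the median of 1.09 was 0.66, 0.70 and 0.63 under the same 3 scalings, and 0.66 with the looser mark or no filter. The 15 higher members there became 12 under each of these 3 scalings, 10 with normexp and 11 with the other probe. With the looser mark they were 17, with no filter 20 and at 4-fold 10. The 3 lower members became 5 with quantile normalization and 7 with the looser mark or no filter. For sDCs minus maDCs the 7 lower members became 4 with normexp, 11 with the looser mark or no filter and 2 at 4-fold, and the 8 higher became 5 with the other probe. For the antibody the 1 lower member became 0 in the authors' table, with normexp and at 4-fold, 4 with the looser mark or no filter (and 1 higher) and 5 at 1.5-fold. With the looser mark 37 members counted as detected in imDCs and 29 in maDCs. Leaving out spots with background outlier marks too, an alternative chosen after seeing the data, left Wnt11 and Fzd5 in maDCs without a value. The higher members of sDCs minus maDCs then fell from 8 to 7, and neither Wnt11 nor Fzd5 was among the 8. Signal over background limits the dim members, most of all in maDCs.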
